A study of Mus musculus with 20 samples.

Results

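The 7 genes described here, Hmgcs1, Idi1, Fdft1, Sqle, Lss, Srebf2 and Insig1, belong to the making of cholesterol and to its control, and were taken by symbol from a table of 25219 genes. All 7 were found and all 7 passed the filter on low counts in every comparison. RNA was measured in inguinal white adipose tissue (iWAT) and brown adipose tissue (BAT) of male mice, with 5 libraries for each of 4 groups of tissue and genotype. Ai-α4KO mice carried floxed alleles of Igbp1, the gene of the phosphatase-binding protein α4, together with Adiponectin-CreERT2, a tamoxifen-inducible Cre recombinase driven by the promoter of an adipocyte gene. Control mice, which the labels call WT, carried the same floxed alleles without the Cre, and both genotypes received tamoxifen from 2 months of age. Tissue was taken 1 week after recombination. The Cre is meant for adipocytes while RNA came from whole tissue, so fewer adipocytes and less RNA per adipocyte cannot be told apart. Whether iWAT and BAT came from one set of mice, and whether each library is a separate mouse, is not stated in the labels, so p-values measure the spread between these libraries.

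Cholesterol is built from acetyl-CoA through mevalonate, isoprenoid units and squalene, and then through a series of sterols. When sterols are scarce in the endoplasmic reticulum, Scap carries the SREBP-2 protein, encoded by Srebf2, to the Golgi, where it is cleaved into a factor that raises transcription of the enzymes, of Insig1 and of Srebf2 itself. When sterols are plentiful, the Insig proteins hold the SREBP and Scap complex back. Adipocytes store free cholesterol at the surface and in the membranes of their lipid droplets and take much of it from lipoproteins. None of the 7 genes encodes a lipoprotein receptor, so uptake enters only through a list of other genes.

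The libraries held between 24023371 and 50384446 counts in all, and the lowest count of any of the 7 genes in any library was 260, for Sqle. Levels are given as CPM, counts scaled to a common library total after normalization across all 20 libraries, and fold changes come from a fit within each tissue. Igbp1, the targeted gene, lay between 57.5 and 76.6 CPM in Control iWAT and between 10.1 and 11.1 CPM in Ai-α4KO iWAT. In BAT it lay between 85.4 and 105.0 CPM in Control and between 13.7 and 25.2 CPM in Ai-α4KO libraries. The adipocyte markers Adipoq and Plin1 and, in BAT, the brown adipocyte gene Ucp1 were detected in the tissues labelled so.

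Marker genes of other cells moved with genotype and stand beside every result that follows. The summed CPM of 10 adipocyte markers fell from 31432 to 42987 in Control iWAT to 12798 to 17960 with the deletion, and from 24308 to 26954 in Control BAT to 13601 to 17017 in Ai-α4KO BAT. Of these markers, 8 of 10 were called lower in iWAT, against 10.7% of all genes tested, and 7 of 10 in BAT, against 13.3%. All 7 measured macrophage markers were called higher in both tissues, against 11.3% of all genes in iWAT and 18.2% in BAT. Their sums were 1087 to 1830 in Control and 7115 to 9539 in Ai-α4KO iWAT, and 218 to 489 and 4070 to 6715 in BAT. In BAT the summed CPM of 8 skeletal muscle genes was 875 to 9156 in Control libraries and 12576 to 41244 in Ai-α4KO libraries. Muscle genes also stood apart in iWAT, with sums of 6563 in Control library 4 and 5276 in Ai-α4KO library 1 against at most 168 in the other iWAT libraries. Control iWAT libraries 1 and 4 held B cell marker sums of 446 and 178, against at most 7.44 in the other Control iWAT libraries. The part of these cells in the results was not tested, except where a value with and without those libraries, or with muscle in the fit, is given.

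On the scale of FPKM, which divides by transcript length and so allows levels of different genes to be compared, Insig1 and Hmgcs1 were the most abundant of the 7 genes in every group. In Control iWAT the mean FPKM was 138 ± 97.7 for Insig1, 52.2 ± 4.27 for Hmgcs1, 24.9 ± 10.5 for Fdft1 and 21.5 ± 5.23 for Idi1 (SD, n = 5). Srebf2, Sqle and Lss followed at 7.95 ± 2.501, 7.73 ± 1.95 and 6.40 ± 1.45. In that group the neighbours Insig1 and Hmgcs1, Fdft1 and Idi1, and the last 3 genes overlapped in their libraries, whereas Hmgcs1 lay above Fdft1, and Idi1 above Srebf2, in every library. In Control BAT the order was the same for the first 4 genes, with Fdft1 at 52.1 ± 13.7 FPKM overlapping Hmgcs1 at 58.5 ± 9.73. In the Ai-α4KO groups Fdft1 moved down the order, from the third place to the sixth in iWAT at 8.60 ± 1.71 FPKM and to the fourth in BAT at 12.6 ± 1.92 FPKM. Lss was last in both Ai-α4KO groups, at 2.77 ± 0.448 and 2.34 ± 0.630 FPKM, and lay below its neighbour in every library of each group.

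A gene was called when it differed by at least 2-fold at an adjusted p below 0.01 in the quasi-likelihood test of edgeR, adjusted over all genes by Benjamini and Hochberg. By this rule 3 of the 7 genes, Fdft1, Lss and Insig1, were lower in Ai-α4KO iWAT, where 10.7% of all genes tested were called lower, and 0 were higher, where 11.3% were. The same 3 of 7 genes were lower in Ai-α4KO BAT, against 13.3% of all genes, and 0 were higher, against 18.2%. At an adjusted p below 0.01 without a fold threshold, 4 of 7 were lower in iWAT, against 18.8% of all genes, and 4 of 7 in BAT, against 24.8%, Hmgcs1 being the addition in both. In each tissue these 4 genes were also the ones without overlap between genotypes, a state reached by 39% of all genes in iWAT and 47.6% in BAT. DESeq2 called 3 of 7 lower in each tissue, whereas limma on log2(FPKM + 1) called 1 in iWAT and 3 in BAT. The plot of CPM by library shows the 3 genes that fell, Hmgcs1 with a smaller fall, and 3 genes whose libraries overlapped.

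**Figure D1:**
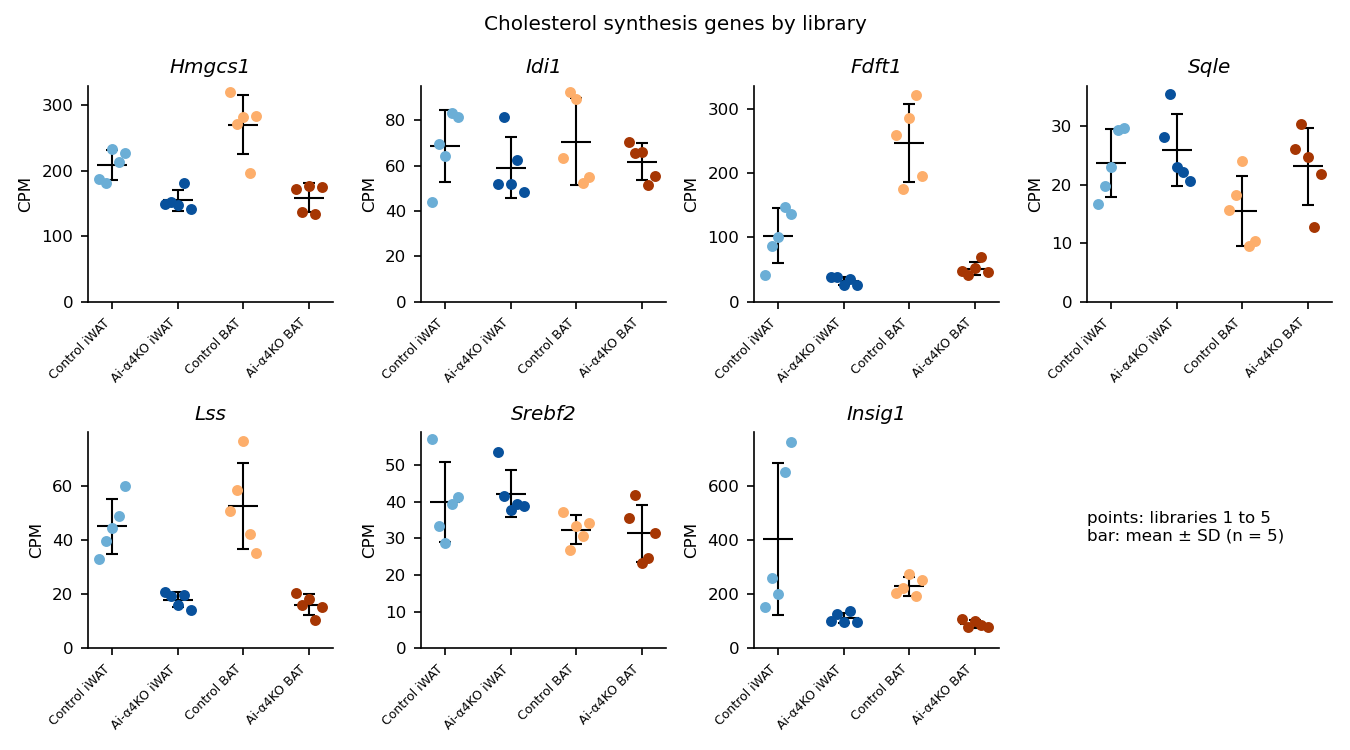
CPM (vertical axes, linear, starting at 0) of the 7 genes in each library of the 4 groups, with horizontal bars for the mean and vertical bars for the SD of 5 libraries. Fdft1, Lss, Insig1 and Hmgcs1 separate by genotype in both tissues, while Idi1, Sqle and Srebf2 overlap.

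The early steps came first. Hmgcs1 makes HMG-CoA from acetoacetyl-CoA and acetyl-CoA (chr13:119690351-119708260, plus strand, mm10). In Control iWAT its libraries read 187, 182, 233, 214 and 226 CPM, and in Ai-α4KO iWAT 149, 153, 147, 181 and 142 CPM. The groups did not overlap, but by a margin of less than 1 CPM. Its log2 fold change in iWAT was -0.44 ± 0.11 (SE), a 1.36-fold fall, with an adjusted p of 0.0053 in edgeR. In BAT the Control libraries read 320, 271, 282, 196 and 283 CPM and the Ai-α4KO libraries 172, 136, 177, 133 and 175 CPM. Every Ai-α4KO library lay below every Control library, and the log2 fold change was -0.80 ± 0.15, with an edgeR adjusted p of 0.00054. Hmgcs1 passed the p threshold without reaching 2-fold in either tissue, and not under every setting. In iWAT its edgeR adjusted p was 0.0147 with a replicate block and 0.0214 with no normalization beyond library size. It was from 0.0113 to 0.0181 without any one of Control libraries 4 or 5 or Ai-α4KO libraries 2, 3 or 5. Without both Control library 4 and Ai-α4KO library 1 it was 0.0172. In limma the adjusted p was 0.0151 on log2(FPKM + 1) and 0.0162 on log2(FPKM + 0.1). In BAT it was 0.033 with the skeletal muscle score in the fit, at a log2 fold change of -0.65.

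Idi1 turns isopentenyl diphosphate into dimethylallyl diphosphate, the 2 being the isomers from which isoprenoids are joined (chr13:8885606-8892396, plus strand). It has a close paralog, Idi2, and how reads common to both were assigned is not given in the sources used here. Its CPM ran from 44.0 to 83.2 in Control iWAT and from 48.3 to 81.6 in Ai-α4KO iWAT. In BAT it ran from 52.3 to 92.7 in Control and from 51.5 to 70.5 in Ai-α4KO libraries. The groups overlapped in both tissues. Its log2 fold changes were -0.22 ± 0.19 in iWAT and -0.22 ± 0.17 in BAT, with edgeR adjusted p of 0.36 and 0.28, respectively.

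Fdft1, squalene synthase, joins a pair of farnesyl diphosphates into squalene and is the first step committed to sterols (chr14:63145151-63179578, minus strand). Its libraries read 41.9, 86.2, 100, 148 and 137 CPM in Control iWAT and 38.2, 37.7, 26, 34.6 and 25.6 CPM in Ai-α4KO iWAT. The Ai-α4KO libraries were close together, and Control library 1 lay just above them while the other Control libraries were more than 2-fold higher. The log2 fold change was -1.67 ± 0.29, a 3.18-fold fall, with an edgeR adjusted p of 0.00062. In BAT the Control libraries read 259, 176, 286, 321 and 196 CPM and the Ai-α4KO libraries 47.3, 41.2, 53.1, 68.9 and 46.2 CPM. The gap between the groups was wide, and the log2 fold change of -2.31 ± 0.20, a 4.95-fold fall, was the farthest from 0 of the 7 genes in either tissue (edgeR adjusted p of 1.3e-06).

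Sqle, squalene epoxidase, adds oxygen to squalene in the next step (chr15:59315092-59331193, plus strand), and it did not fall with Fdft1. Its libraries read 16.6, 19.7, 23.0, 29.4 and 29.6 CPM in Control iWAT and 28.2, 35.6, 23.1, 22.1 and 20.6 CPM in Ai-α4KO iWAT. In BAT the Control libraries read 15.6, 18.2, 24.1, 9.49 and 10.4 CPM and the Ai-α4KO libraries 26.1, 30.4, 24.7, 12.7 and 21.8 CPM. The groups overlapped in both tissues. The log2 fold changes were 0.12 ± 0.20 in iWAT and 0.54 ± 0.28 in BAT, with edgeR adjusted p of 0.62 and 0.11.

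Lss, lanosterol synthase, closes the oxygenated squalene into lanosterol, the first sterol (chr10:76531605-76557139, plus strand). Its libraries read 32.9, 39.6, 44.5, 48.8 and 60.0 CPM in Control iWAT and 20.6, 19.2, 15.8, 19.6 and 14.2 CPM in Ai-α4KO iWAT. The log2 fold change was -1.34 ± 0.17, a 2.53-fold fall, with an edgeR adjusted p of 5.9e-05. In BAT the Control libraries read 51.0, 58.6, 76.6, 42.3 and 35.1 CPM and the Ai-α4KO libraries 20.6, 16.1, 18.4, 10.3 and 15.2 CPM. No library overlapped in either tissue, and the fall in BAT was 3.35-fold, a log2 fold change of -1.74 ± 0.23 (edgeR adjusted p of 3.6e-05).

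Srebf2 encodes SREBP-2, the factor that raises transcription of these enzymes (chr15:82147269-82204960, plus strand). Its intron holds a microRNA, Mir33, and the row of Srebf2 lists that transcript too. Srebf2 ran from 28.6 to 57.3 CPM in Control iWAT and from 37.8 to 53.7 CPM in Ai-α4KO iWAT. In BAT it ran from 26.7 to 37.2 CPM in Control and from 23.2 to 41.96 CPM in Ai-α4KO libraries. The groups overlapped fully. The log2 fold changes were 0.07 ± 0.18 and -0.08 ± 0.17, with edgeR adjusted p of 0.75 and 0.68. The cleaved form of the protein was not measured.

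Insig1 encodes the protein that retains the SREBP and Scap complex in the endoplasmic reticulum, and it is itself a target of SREBP (chr5:28071412-28078662, plus strand). In Control iWAT its libraries read 153, 258, 200, 650 and 763 CPM, so that the highest was 4.996 times the lowest. In Ai-α4KO iWAT they read 98.98, 127, 95.1, 136 and 95.4 CPM. The Control group was the most spread of any group of the 7 genes, yet all its libraries lay above the Ai-α4KO ones. The log2 fold change was -1.88 ± 0.42, a 3.67-fold fall, with an edgeR adjusted p of 0.0030. That call was lost without Ai-α4KO iWAT library 3, at an edgeR adjusted p of 0.0103, and in limma on FPKM. In BAT the Control libraries read 202, 223, 274, 192 and 251 CPM and the Ai-α4KO libraries 108, 77.1, 98.6, 86.0 and 76.2 CPM. There the groups were tight and well apart, with a log2 fold change of -1.39 ± 0.14 and an edgeR adjusted p of 4.9e-06.

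Exact permutation tests on single genes gave a two-sided p of 0.0079, the smallest that 5 against 5 libraries allow, for Hmgcs1, Fdft1, Lss and Insig1 in both tissues. With Control iWAT libraries 1 and 4 left out, the log2 fold changes in iWAT were -1.82 for Fdft1, -1.51 for Lss and -1.96 for Insig1, and all 3 calls held in edgeR. With the muscle-rich Control library 4 and Ai-α4KO library 1 left out of iWAT, a setting chosen after the data were seen, Fdft1 (-1.57) and Lss (-1.37) kept their calls, whereas Insig1 (-1.60) had an edgeR adjusted p of 0.0151 and lost its own. With the skeletal muscle score in the fit for BAT they were -2.30, -1.53 and -1.48, and all 3 calls held there too.

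The fit of all 20 libraries asked whether the genotype difference itself differed between tissues. Of the 7 genes 0 passed an adjusted p below 0.01, against 4.86% of all genes, and 0 had an unadjusted p below 0.05 in edgeR or were called by DESeq2. The difference of the log2 fold changes, BAT minus iWAT, was -0.61 ± 0.36 for Fdft1, -0.37 ± 0.29 for Lss, -0.33 ± 0.18 for Hmgcs1, 0.45 ± 0.36 for Sqle and 0.52 ± 0.46 for Insig1. A difference between tissues of 2-fold lies within 2 standard errors of the values of Insig1, Fdft1 and Sqle.

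Between tissues of Control mice, Fdft1 alone of the 7 was called, higher in BAT, where 7.22% of all genes were called higher than in iWAT, and 0 of 7 were lower, where 14.7% were. The log2 difference of Fdft1, BAT minus iWAT, was 1.24 ± 0.30 with an edgeR adjusted p of 0.0052. It was lost without any one of 5 libraries: Control BAT 1, 3 or 4 or Control iWAT 2 or 3 (edgeR adjusted p from 0.0119 to 0.0143). In Ai-α4KO mice 0 of 7 were called higher in BAT, against 8.4% of all genes, or lower, against 3.09%. Fdft1 there had a log2 difference of 0.72 ± 0.18 and an edgeR adjusted p of 0.0093, under the 2-fold threshold. The depot comparisons use the same libraries as the genotype comparisons and are not independent of them.

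Neighbouring enzymes moved apart, which a ratio within a library shows without any normalization between libraries. The ratios were chosen after the values had been seen and are described without a test. The log2 ratio of the counts of Sqle to Lss was -0.94 ± 0.12 (SD, n = 5) in Control and 0.52 ± 0.25 in Ai-α4KO libraries of iWAT, and -1.79 ± 0.20 and 0.50 ± 0.25 in BAT. The ranges were -1.02 to -0.73 and 0.18 to 0.89 in iWAT, and -2.15 to -1.67 and 0.30 to 0.91 in BAT. In every Control library Lss exceeded Sqle and in every Ai-α4KO library Sqle exceeded Lss, on the scale of counts and not of molecules, since the transcripts differ in length. The change amounted to 2.74-fold in iWAT and 4.89-fold in BAT. For Sqle to Fdft1 it was 3.23-fold and 7.23-fold, with no overlap of the groups in either tissue. For Idi1 to Hmgcs1, a pair of early enzymes, it was 1.17-fold in iWAT and 1.52-fold in BAT.

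**Figure D2:**
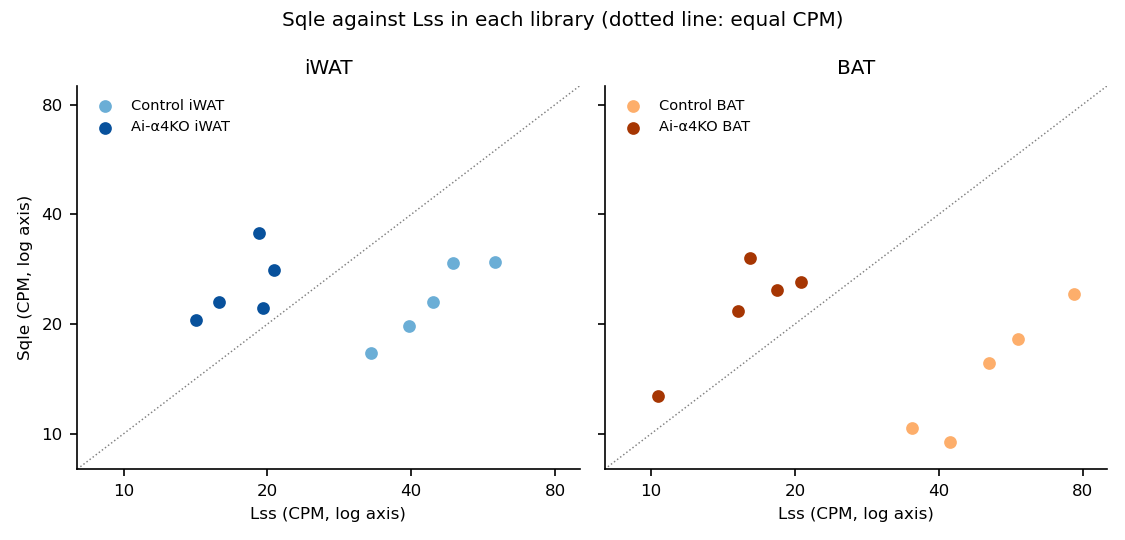
Sqle (vertical axis) against Lss (horizontal axis), both in CPM on log axes, 1 point per library, for iWAT and BAT; the dotted line marks equal CPM. All 10 Control libraries lie below the line and all 10 Ai-α4KO libraries above it, while within each group the points run upwards together.

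Some of the 7 genes also varied together between libraries of the same group. As deviations of log2 CPM from the 4 group means over 20 libraries, Pearson's r was 0.88 for Sqle and Lss, 0.83 for Sqle and Idi1, and 0.79 for Idi1 and Lss, pairs of which only Lss had fallen. Over the 21 pairs the median r was 0.39, with 7 pairs above 0.5 and 4 below 0. Srebf2 stood apart, with r from -0.32 with Fdft1 to 0.17 with Sqle. In Control iWAT the 2 libraries highest in Insig1, 4 and 5, were also the highest in Fdft1, Lss, Sqle and Idi1. The points share library, depth and normalization, and the values are descriptions with no test.

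**Figure D3:**
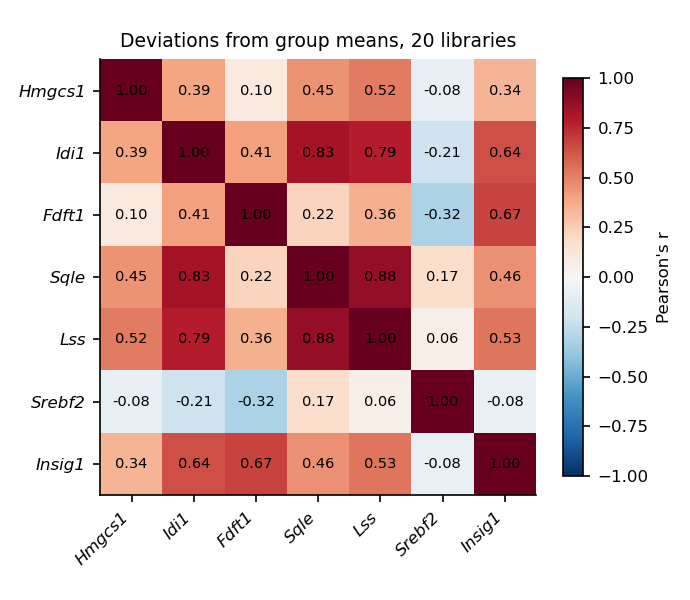
Pearson's r between each pair of the 7 genes (rows and columns; colour from -1 to 1), over the deviations of log2 CPM from the group means in 20 libraries. Idi1, Sqle and Lss form the block of highest values, and Srebf2 is close to 0 or below it with most genes.

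Among 15223 other genes, the 10 whose deviations were most like the mean of the 7 genes were Pnpla3, Rdh11, Cyp51, Gm14403, Dhx32, Ppp2r5a, Cyb5b, C1rl, Asns and Orm3, with r from 0.86 for Pnpla3 to 0.77 for Orm3 over 20 libraries. Cyp51, which removes a methyl group of lanosterol in the step after Lss, was the only other enzyme of the pathway among these 10. The ranking depended on the libraries used: over the 10 Control libraries alone Cyp51 ranked 48 and Acat2, another enzyme of the pathway, 9.

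Promoters are shown because the 7 genes have a known common regulator, SREBP-2, yet moved differently. RefSeq gave a promoter of 300 bases, from 250 before to 50 after the start, for 5 of the 7 genes (GRCm38.p6), and none was found for Fdft1 and Sqle. The windows searched on both strands held TCACNCCAC, a form of the sterol regulatory element bound by SREBP, CCAAT, bound by NF-Y, GGGCGG, bound by Sp1, and CANNTG, the E-box, which reads the same on both strands. Below, capitals mark TCACNCCAC and CCAAT, the latter appearing as ATTGG where it lies on the other strand; all 4 windows are on the plus strand, at chr13:119690101-119690400 for Hmgcs1, chr13:8885356-8885655 for Idi1, chr10:76531355-76531654 for Lss and chr5:28071162-28071461 for Insig1.
Hmgcs1: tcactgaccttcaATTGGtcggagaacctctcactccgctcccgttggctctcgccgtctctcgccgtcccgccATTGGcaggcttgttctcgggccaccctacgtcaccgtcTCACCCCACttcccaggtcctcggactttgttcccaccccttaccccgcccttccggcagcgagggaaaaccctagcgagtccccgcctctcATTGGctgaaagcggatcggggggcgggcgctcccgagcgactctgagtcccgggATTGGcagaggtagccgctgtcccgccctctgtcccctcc
Idi1: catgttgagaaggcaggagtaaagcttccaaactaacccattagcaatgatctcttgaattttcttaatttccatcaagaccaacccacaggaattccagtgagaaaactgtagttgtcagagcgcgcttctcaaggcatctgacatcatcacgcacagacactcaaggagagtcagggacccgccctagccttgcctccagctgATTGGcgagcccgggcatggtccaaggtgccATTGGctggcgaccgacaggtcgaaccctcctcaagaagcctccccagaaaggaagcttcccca
Lss: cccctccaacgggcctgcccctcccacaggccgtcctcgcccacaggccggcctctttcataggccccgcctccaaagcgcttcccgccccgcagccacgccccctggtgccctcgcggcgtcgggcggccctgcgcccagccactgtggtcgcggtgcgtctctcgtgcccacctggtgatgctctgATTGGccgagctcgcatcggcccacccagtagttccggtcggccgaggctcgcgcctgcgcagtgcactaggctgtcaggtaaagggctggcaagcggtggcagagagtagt
Insig1: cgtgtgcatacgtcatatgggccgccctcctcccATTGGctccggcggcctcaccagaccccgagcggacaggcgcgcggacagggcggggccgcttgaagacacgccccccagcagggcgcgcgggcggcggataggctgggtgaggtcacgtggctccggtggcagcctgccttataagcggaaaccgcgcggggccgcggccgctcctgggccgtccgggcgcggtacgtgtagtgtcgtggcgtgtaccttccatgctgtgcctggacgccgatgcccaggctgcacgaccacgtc
The searched form of the sterol regulatory element, TCACNCCAC, was found once, in Hmgcs1, as TCACCCCAC at 137 bases before the start. Of 32851 promoter windows, 1.24% hold it. CCAAT was found in all 5 promoters, Srebf2 included, 9 times in all, and all 9 lay on the minus strand; 37.4% of all windows hold it. Hmgcs1 had 4 of these, Idi1 2, and Lss, Insig1 and Srebf2 1 each. GGGCGG was in all 5 promoters, against 35.7% of all windows, and CANNTG in all 5, against 72.3%. The promoters of Lss and Insig1, which fell, and that of Srebf2, which did not, had the same number of CCAAT matches and no match to TCACNCCAC. A match is a run of letters, not a bound site. Other forms of the sterol regulatory element, and elements outside these windows, were not searched.

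The rest of the pathway was followed through lists written with knowledge of earlier results. Of 21 enzymes from acetyl-CoA to cholesterol, all tested, 6 were called lower and 0 higher in Ai-α4KO iWAT, against 10.7% and 11.3% of all genes, with a median log2 fold change of -0.44 against 0.01 for all genes. In BAT 5 were lower and 0 higher, against 13.3% and 18.2% of all genes, with a median of -0.36 against -0.03. In iWAT limma on log2(FPKM + 1) called 3 of the 21 lower. Those lower in both tissues were Fdft1, Lss, Acat2, which makes acetoacetyl-CoA, and Pmvk, phosphomevalonate kinase. Acat2 had log2 fold changes of -1.76 and -1.79, and Pmvk of -1.65 and -1.39, with edgeR adjusted p of at most 6.5e-05. The further calls, named after their values were seen, were Tm7sf2 (-1.03) and Nsdhl (-1.02), enzymes after lanosterol, in iWAT, and Mvk (-1.10), mevalonate kinase, in BAT. With no normalization beyond library size, which raises the median of all genes in BAT by 0.26, the split in BAT of 0 higher and 5 lower became 2 higher and 5 lower. At the looser threshold of an adjusted p below 0.05 and any fold, iWAT had 10 of 21 lower and 3 higher, where 26.2% and 28.5% of all genes were, and BAT had 10 lower and 6 higher, where 31.9% and 31.1% were.

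Of 9 genes that control SREBP, 2 were lower in each tissue, where 10.7% of all genes were in iWAT and 13.3% in BAT, and 0 were higher, with median log2 fold changes of -0.45 and -0.21. Insig1 was the one lower in both. Srebf1, whose products act mainly on fatty acid genes, had log2 fold changes of -1.59 ± 0.28 in iWAT, with an edgeR adjusted p of 0.00069, and -0.91 ± 0.27 in BAT, where it was 0.0117. Scap, the escort of SREBP, had -0.74 ± 0.15 (0.0016) in iWAT, short of 2-fold, and -1.02 ± 0.15 (0.00012) in BAT. Insig2, the second Insig protein, went its own way, with -0.52 ± 0.08 in iWAT and 0.12 ± 0.12 in BAT. Its groups did not overlap in iWAT and did in BAT, and the difference between tissues of 0.67 ± 0.14 passed the interaction test (edgeR adjusted p of 0.0041).

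**Figure D4:**
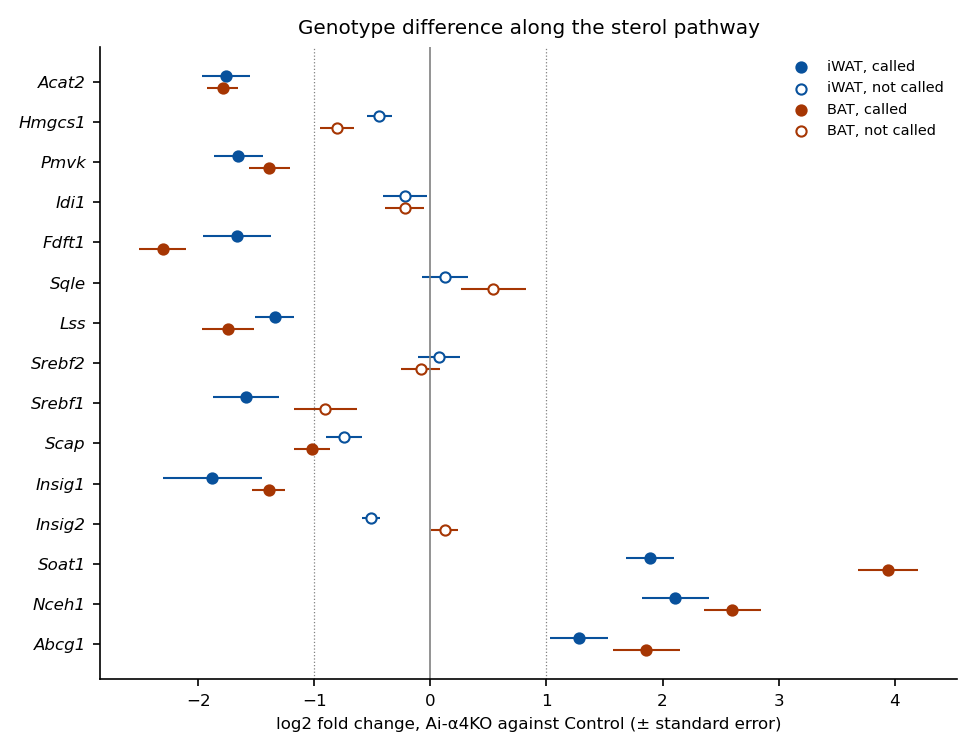
Log2 fold change of Ai-α4KO against Control (horizontal axis) with its standard error for the 7 genes and other genes of sterol metabolism, iWAT in blue and BAT in brown; filled points were called and dotted lines mark 2-fold. Synthesis genes lie at or below 0 except Sqle, and the sterol ester and export genes Soat1, Nceh1 and Abcg1 lie to the right.

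Uptake and onward handling of cholesterol gave calls in both directions. Of 11 tested genes of lipoprotein uptake and lysosomal release, iWAT had 1 higher and 1 lower, and BAT had 0 higher. The 2 in iWAT, named after their values were seen, were Lipa, the lysosomal acid lipase (1.05), and Vldlr, a lipoprotein receptor (-1.73). Of 5 genes of sterol export 1 was higher in both tissues, against 11.3% of all genes in iWAT and 18.2% in BAT. It was Abcg1, a sterol exporter, with log2 fold changes of 1.28 and 1.86. All 4 genes of sterol ester turnover were called in both tissues, 3 higher and 1 lower in each, beside the same shares of all genes. Soat1, which esterifies cholesterol, had 1.89 ± 0.21 in iWAT and 3.94 ± 0.26 in BAT, where it went from a mean of 4.26 to 67.1 CPM. Nceh1, a cholesteryl ester hydrolase, had 2.11 and 2.60. Soat2 was also higher, but at a mean of only 0.341 and 2.65 CPM in iWAT and 0.0918 and 1.78 CPM in BAT. Lipe, the hormone-sensitive lipase, was lower, at -1.93 and -2.10, and is also 1 of the 10 adipocyte markers. The rise of Soat1, Nceh1 and Abcg1 stood beside the rise of all 7 macrophage markers, and the part of macrophages in it was not tested.

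Genes of fatty acid synthesis fell in both tissues. All 6 genes of fatty acid synthesis, Fasn, Acaca, Acly, Elovl6, Scd1 and Me1, were called lower in both tissues, against 10.7% of all genes in iWAT and 13.3% in BAT. Their median log2 fold changes were -3.37 in iWAT and -2.67 in BAT. Fasn, fatty acid synthase, had -4.26 and -3.26. Every one of the 7 cholesterol genes thus had a smaller change than the median gene of fatty acid synthesis in its tissue. Of 7 genes of the isoprenoid branch, which leads to ubiquinone, dolichol and prenylated proteins, 1 was lower in iWAT, Pdss2 at -1.16, where 10.7% of all genes were, and 0 in BAT, where 13.3% were, and 0 were higher in either.

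Since adipocyte markers fell, each gene was also set against them, as its log2 CPM minus the mean log2 CPM of the 10 markers. This index rises for any gene that fell less than the markers, whose median log2 fold change was -1.78 in iWAT and -1.64 in BAT. It was higher in Ai-α4KO iWAT without overlap for 5 of 7 genes, and for 76.4% of all genes tested, so that the count says nothing particular about the 7. The differences were 1.93 for Sqle, 1.90 for Srebf2, 1.59 for Idi1, 1.36 for Hmgcs1 and 0.47 for Lss. In BAT it was higher without overlap for 3 of 7, against 64.2% of all genes, by 2.0004 for Sqle, 1.33 for Srebf2 and 1.24 for Idi1. For these 8 differences the exact permutation p was 0.0079, unadjusted, among 14 such tests. For the genes that had fallen, the index of Insig1 differed by 0.20 in iWAT and 0.04 in BAT, with exact p of 0.61 and 0.76. Hmgcs1 in BAT overlapped and differed by 0.64 (exact p of 0.024). Fdft1 differed by 0.23 in iWAT (exact p of 0.47) and by -0.85 in BAT (exact p of 0.024). Lss differed by -0.29 in BAT (exact p of 0.29). Relative to adipocyte markers, then, Fdft1 in BAT was the single fall among the 7 genes with an exact p below 0.05.

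**Figure D5:**
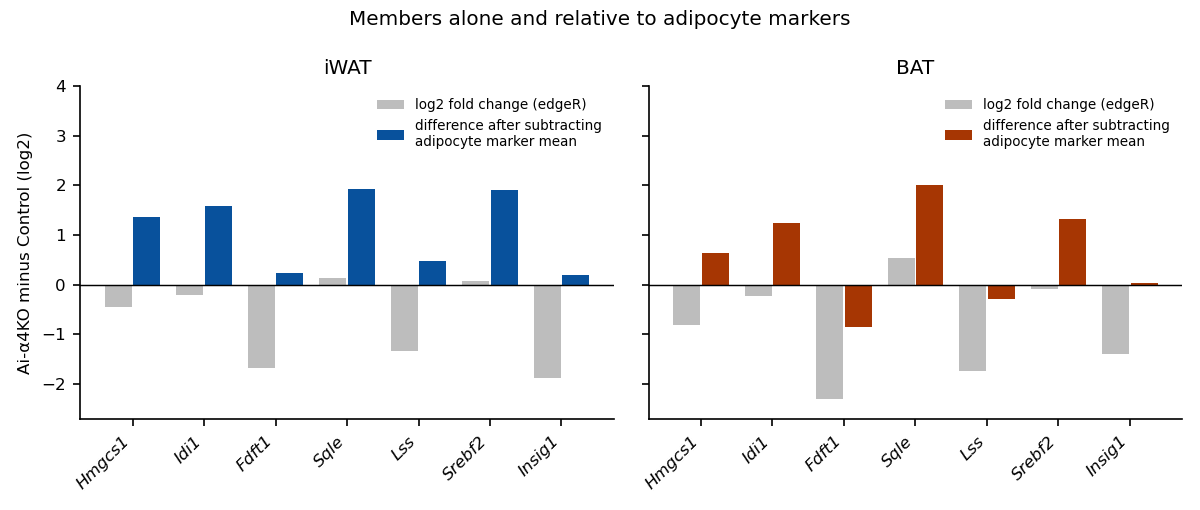
Difference between Ai-α4KO and Control on the log2 scale for the 7 genes in iWAT and BAT, as the edgeR log2 fold change (grey bars) and as the difference of log2 CPM minus the adipocyte marker mean (coloured bars). Bars of Sqle, Idi1, Srebf2 and Hmgcs1 turn or grow upwards relative to the markers, those of Insig1 end near 0, and that of Fdft1 in BAT stays below 0 at -0.85.

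The remaining cell type lists are given as counts of called genes, beside shares of all genes of 11.3% higher and 10.7% lower in iWAT and of 18.2% higher and 13.3% lower in BAT. Of 5 neutrophil genes 4 were higher in iWAT and 5 in BAT, of 5 T cell genes 0 and 3, and of 5 stromal genes 0 and 2. Of 5 endothelial genes 3 were lower in each tissue. Of 6 brown adipocyte genes 5 were lower in iWAT and 2 in BAT, and of 8 muscle genes 0 were higher in iWAT and 6 in BAT. Of the B cell genes tested 1 of 5 was lower in iWAT and 1 of 3 higher in BAT.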

How the data were processed

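RNA was measured in 20 libraries from iWAT and BAT. According to the study's methods, libraries were stranded and poly(A)-selected and gave paired reads of 150 bases; the submitters' processing notes name bcl2fastq 2, STAR 2.5.3a and mm10. The counting tool is not given in the sources used here. The authors deposited 1 table with an expected count per gene and library, not normalized, of which 78.2% of the nonzero values are whole to within 1e-06, and an FPKM value, which they scaled by transcript width and library total.

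Expected counts were rounded and fitted in R 4.3.3 with edgeR 4.0.16 (TMM, filterByExpr, glmQLFit and glmQLFTest), within tissue and without covariates. The thresholds were adjusted p below 0.01 and 2-fold, as in the text of the study, whose legend for the same counts gives 0.05 in place of 0.01. CPM came from all 20 libraries, and a prior count of 2 was added for log2 CPM. For single values, two-sided exact permutation tests were used. Alternatives were DESeq2 1.42.0, limma 3.58.1 on log2(FPKM + 1) and log2(FPKM + 0.1), other normalizations and filters, a replicate block, and leaving out each library. The code was tested on simulated data. The members and lists were chosen with earlier results of these data known. Genes named by rule were the 7, Igbp1, Insig2, Srebf1, Scap, the 10 genes most alike, and list genes called alike in both tissues; not every gene counted in a list is reported by name.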

Additional observations from a re-analysis of the deposited data

Results flagged for a closer look

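Among 19 genes in 76 groups, 6 libraries stood far from the others of their group by Dixon's test (critical value 0.71 for 5 libraries), where chance flags about 1 in 20 groups, or 3.8 here. Of the 7 genes only Srebf2 was involved, with Ai-α4KO iWAT library 1 high at 53.7 CPM against a group median of 39.4. Insig2 was high in Control iWAT library 3 at 83.2 CPM (median 72.4) and Scap low in Ai-α4KO BAT library 3 at 15.9 CPM (median 21.9). Abcg1 was high in Control iWAT library 1 at 67.0 CPM (median 28.4), one of the 2 libraries with high B cell markers. Soat2 was low in Ai-α4KO BAT library 4 at 0.837 CPM (median 1.93), and Vldlr high in Ai-α4KO iWAT library 4 at 54.0 CPM (median 42.1).

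The genotype difference differed between tissues, by the interaction test in edgeR, for 3 of the 19 genes. The log2 fold change in BAT minus that in iWAT was 0.67 for Insig2, 2.08 for Soat1 and -0.91 for Lipa, with adjusted p of 0.0041, 0.00075 and 0.0023.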

How the results depend on the processing

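Of 485 values of the 7 genes under the alternatives, 445 kept direction and call, 13 lost a call, 3 newly passed, at an exact p of 0.0079 among 14 such tests (Sqle in both tissues and Srebf2 in iWAT, relative to adipocyte markers) and 24 changed sign; the cause was not tested. Of the 24, 9 were relative to adipocyte markers: Hmgcs1 (1.36), Idi1 (1.59), Fdft1 (0.23), Lss (0.47) and Insig1 (0.20) in iWAT, and Hmgcs1 (0.64), Idi1 (1.24), Srebf2 (1.33) and Insig1 (0.044) in BAT. The other 15 were of Sqle, Srebf2 and Idi1, which passed the test in neither fit, at adjusted p of 0.38 or above. Idi1 in BAT was 0.056 with library size only, 0.074 in limma on log2(FPKM + 0.1) and 0.070 on log2(FPKM + 1), and Srebf2 in BAT 0.20, 0.16 and 0.14 in the same order and 0.26 with the muscle score. Srebf2 in iWAT was -0.019 with upper-quartile scaling and -0.036 without the muscle-rich libraries. Without 1 library Sqle in iWAT ran from -0.040 to 0.22, Srebf2 there from -0.069 to 0.18, and Srebf2 in BAT from -0.21 to 0.052. In iWAT, limma on log2(FPKM + 1) called 1 of the 7 genes lower (Lss at -0.96, Insig1 at an adjusted p of 0.0122), and leaving out 1 library gave 2 to 3, and leaving out both muscle-rich libraries 2 (with 1 of the 21 enzymes higher); in BAT every such fit gave 3. In the depot comparison of Control mice 0 were higher with library size only and in limma on log2(FPKM + 1), and 0 to 1 without 1 library; in Ai-α4KO mice 1 was higher at an adjusted p below 0.05. Of the 21 enzymes, at an adjusted p below 0.05 and any fold, iWAT had 3 higher and 10 lower, and BAT had 6 higher and 10 lower; limma on log2(FPKM + 1) called 3 lower in iWAT. In BAT 1 was higher with a minimum of 10 counts, DESeq2, limma on log2(FPKM + 1), the muscle score, upper-quartile scaling or the replicate block, 2 with library size only or limma on log2(FPKM + 0.1), and 0 to 2 without 1 library. With the replicate block 3 of the 7 genes stayed lower in each tissue; same-numbered libraries had r of -0.45 to 0.13 in iWAT and of -0.15 to 0.22 in BAT, and between the tissues of -0.081 to 0.22 in Control and -0.27 to 0.24 in Ai-α4KO mice, with 1 or 2 of 5 pairs above 0.1 in each comparison, so the numbers were not taken to pair libraries; whether tissues shared mice was not settled by this. Library size alone shifted the median log2 fold change of all genes by 0.12 in iWAT and 0.26 in BAT. Depth limits none of the 7 genes, whose lowest count was 260.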
